A study of Mus musculus with 4 samples.

Results

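Potassium channel genes were taken as the rows of the count tables whose symbol begins with Kcn, followed by letters and a number. The pattern matched 97 of 23282 rows, of which 93 are channel or auxiliary subunit genes and 4 are antisense or opposite-strand transcripts named after a channel (Kcnq1ot1, Kcnd3os, Kcnmb4os1 and Kcnmb4os2). The pattern itself uses no measured value, but the family was chosen by the counts of Kcnc2 in these same 4 libraries, so Kcnc2 is described without a test. The cells were primary pancreatic acinar cells of C57BL/6J mice, kept in medium with 25 ng/ml epidermal growth factor. One group of 2 libraries came from cells given an adenovirus that overexpresses estrogen-related receptor γ (ERRγ, gene Esrrg), and the other group of 2 libraries from cells given the same kind of virus with green fluorescent protein (GFP). Both viruses were used at a multiplicity of infection of 100 for 36 h. The age and sex of the mice and the viral promoter are not known here. The labels do not tell whether a pair of libraries stands for 2 mice, 2 dishes or 1 preparation, and the p-values therefore reflect the spread of these libraries alone, which may be technical.

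Potassium channels let potassium leave the cell down its gradient and so set the resting membrane potential and end electrical signals. In exocrine glands they are known for holding the membrane voltage negative while chloride and fluid are secreted, and the sodium-potassium pump supplies the gradient. Voltage-gated channels open on depolarization, inward rectifiers pass current near the resting potential, two-pore-domain channels carry the leak, and a further class opens on intracellular calcium. ERRγ, a nuclear receptor without a known hormone, recognises DNA with the core letters AAGGTCA, and in mice its loss is known to disturb potassium homeostasis of heart, stomach and kidney.

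The tables hold 10.48 M and 10.65 M reads in ERRγ libraries 1 and 2, and 10.11 M and 11.01 M reads in GFP libraries 1 and 2, counted at transcript ends. Levels are CPM (counts per 1000000 reads) on library sizes scaled by TMM, a scaling that assumes most genes unchanged. A floor of 3 counts corresponds to 0.267 to 0.307 CPM, and this floor covers counting error only. Esrrg had 1453 and 12994 counts in the ERRγ libraries, against 86 and 107 in the GFP libraries, so that its CPM in ERRγ library 2 was 9.90 times that in library 1. Beside the acinar label, 10 acinar markers summed to 85.1 and 95.3 CPM with ERRγ and 84.2 and 45.7 CPM with GFP. Of these only the acinar factor gene Ptf1a was at 0 throughout. Bhlha15 had 15 and 15 counts with ERRγ, against 19 and 11 with GFP, and Rbpjl had 25 and 43 against 6 and 11. Among the enzymes, Cpa1 had 21 and 9 counts with ERRγ, against 44 and 6 with GFP. Pnlip had 27 and 9 against 54 and 10, and Cel had 7 and 2 against 38 and 1, with the groups overlapping. Cela1 had 131 and 56 against 106 and 78, and Cela2a had 60 and 14 against 60 and 15. Ctrb1 had 512 and 547 against 460 and 354, and Prss2 had 157 and 271 against 37 and 24. Ductal markers summed to 2340 and 2990 CPM with ERRγ and 3300 and 3330 CPM with GFP. In the edgeR test described below the acinar marker Prss2 and the ductal marker Cftr were higher with ERRγ, and the ductal marker Krt7 was lower. All values are of bulk RNA, where fewer cells of a type and less RNA per cell cannot be told apart.

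Promoter sequence is shown for the entry gene Kcnc2 and for 2 of the members that passed the test, Kcnh1, because its window holds the ERR core, and Kcnj4, because it is the richest in CG among the 5 members that were higher with ERRγ. The windows were 250 bases before to 50 after each RefSeq start on GRCm38.p6, and 71 of the 97 members had at least 1. The 250 bases before the start nearest the annotated gene start are printed 5′ to 3′, with AAGGTCA in capitals where it occurs, read here as TGACCTT because it lies on the opposite strand.
Kcnc2, chr10:112270871-112271120, plus strand: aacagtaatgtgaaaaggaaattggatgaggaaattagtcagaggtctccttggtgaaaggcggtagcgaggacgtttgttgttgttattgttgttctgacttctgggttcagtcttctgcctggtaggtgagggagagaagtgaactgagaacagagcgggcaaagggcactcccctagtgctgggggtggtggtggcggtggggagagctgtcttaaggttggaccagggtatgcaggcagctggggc
Kcnh1, chr1:192190527-192190776, plus strand: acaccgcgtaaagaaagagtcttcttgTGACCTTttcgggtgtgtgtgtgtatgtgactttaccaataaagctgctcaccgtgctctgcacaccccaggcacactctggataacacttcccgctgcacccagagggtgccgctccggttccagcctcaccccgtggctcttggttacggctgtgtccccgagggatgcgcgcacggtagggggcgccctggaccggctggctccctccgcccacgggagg
Kcnj4, chr15:79505242-79505491, minus strand: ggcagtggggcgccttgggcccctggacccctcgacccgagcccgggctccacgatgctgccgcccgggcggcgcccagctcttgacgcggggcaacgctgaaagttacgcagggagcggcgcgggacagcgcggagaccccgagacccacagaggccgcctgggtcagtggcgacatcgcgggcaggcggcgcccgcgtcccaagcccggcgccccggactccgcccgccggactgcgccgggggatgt

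The 3 stretches differ in composition, with 52.8% GC and 5 CG dinucleotides for Kcnc2, 62% and 17 for Kcnh1, and 77.2% and 35 for Kcnj4. On either strand AAGGTCA was found in the windows of Kcnf1, Kcnh1 and Kcnj16, which is 3 of 71 members (4.23%), against 5.38% of the 27025 genes with a window. In Kcnh1 it begins 223 bases before the start. The longer form TNAAGGTCA, which contains the shorter one, was found in Kcnj16 only, 1 of 71 members (1.41%) against 1.43% of all genes. None of the 4 windows of Kcnc2, the 2 of Kcnn1 or the single windows of Kcnj4 and Kcnk1 holds either form. A match is a description of letters, and no match says only that they are absent from these windows.

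Most of the family was barely or not detected in these cultures. Of the 97 rows, 32 (33.0%) had 10 or more counts in at least 1 library, against 59.8% of all rows of the tables. Among these were the voltage-gated Kcnc2, Kcnh1, Kcnh8, Kcnq1 and Kcns1, and the inward rectifiers Kcnj2, Kcnj4, Kcnj11, Kcnj14 and Kcnj15. There were also the two-pore-domain genes Kcnk1, Kcnk2, Kcnk3, Kcnk5, Kcnk6 and Kcnk10 and the calcium-activated or related genes Kcnma1, Kcnn1, Kcnn3, Kcnn4 and Kcnu1. The auxiliary genes of the set were Kcnab1, Kcnab3, Kcne3, Kcne4, Kcnip4, Kcnmb1, Kcnmb2 and Kcnmb3, and the antisense RNA Kcnq1ot1. At the edge of this minimum, Kcnh8 and Kcnmb1 reached 10 counts in their highest library, and Kcnk12 reached 9. A further 36 rows had between 1 and 9 counts in their highest library, and 29 rows had none, among them Kcnn2, Kcnd3, Kcnk16, Kcnj1, Kcnt1 and Kcnv1. A count of 0 allows up to the floor given above.

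**Figure D1:**
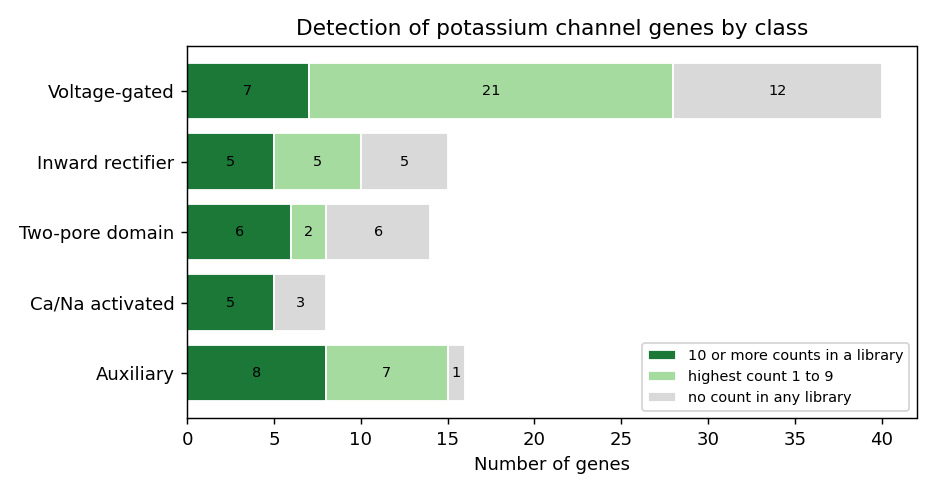
Number of potassium channel genes (horizontal axis) in each class (rows), split by the highest count reached in any of the 4 libraries: 10 or more, 1 to 9, or none. Voltage-gated genes are the largest class with 40, of which 7 reached 10 counts, while 8 of 16 auxiliary genes did.

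The counts were unevenly spread over the 93 channel and auxiliary genes. Kcnk1, a two-pore-domain leak channel, held 56.8% and 56.3% of their counts in ERRγ libraries 1 and 2, and 52.3% and 56.8% in GFP libraries 1 and 2. Together with Kcnn4 and Kcnn3 it held 73.1% and 75.7% with ERRγ and 77.4% and 83.6% with GFP. Summed over all 93 genes, the level was 315 and 365 CPM with ERRγ, against 228 and 226 CPM with GFP, and 136 and 159 CPM against 109 and 97.6 CPM without Kcnk1. Both sums were higher in each ERRγ library than in either GFP library, but they hold the 5 members described below as higher with ERRγ. Over the remaining 88 genes the sums were 102 and 123 CPM with ERRγ and 103 and 93.6 CPM with GFP, and the groups overlapped.

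By class, the voltage-gated genes summed to 34.0 and 35.1 CPM with ERRγ and 19.4 and 15.6 CPM with GFP. The inward rectifiers summed to 18.1 and 18.5 CPM with ERRγ and 10.4 and 4.93 CPM with GFP, and the two-pore-domain genes to 190 and 217 CPM against 129 and 134 CPM. Without Kcnc2 and Kcnh1 the voltage-gated sum was 17.7 and 19.3 CPM with ERRγ and 18.4 and 15.3 CPM with GFP, and without Kcnj4 the inward rectifiers were at 4.63 and 4.14 CPM against 5.93 and 2.06 CPM, both overlapping. The two-pore-domain genes without Kcnk1 were at 10.6 and 11.7 CPM with ERRγ and 9.30 and 5.47 CPM with GFP. The auxiliary genes were at 15.0 and 14.0 CPM with ERRγ and 10.4 and 9.59 CPM with GFP. The calcium- or sodium-activated genes overlapped, at 58.5 and 80.0 CPM with ERRγ and 59.4 and 62.0 CPM with GFP. Counts in ERRγ libraries only were found for 9 of the 97 rows, of which 2 (Kcne2 and Kcnc4) had counts in both of them. The highest count among the 9 was 13, for Kcns1 in ERRγ library 1. A further 7 rows had counts in GFP libraries only, none above 4 counts. The share of such rows over all genes was not computed, so nothing is read from these numbers. Kcne2, the gastric partner subunit of Kcnq1, had 1 and 6 counts with ERRγ, against 0 and 0 with GFP.

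**Figure D2:**
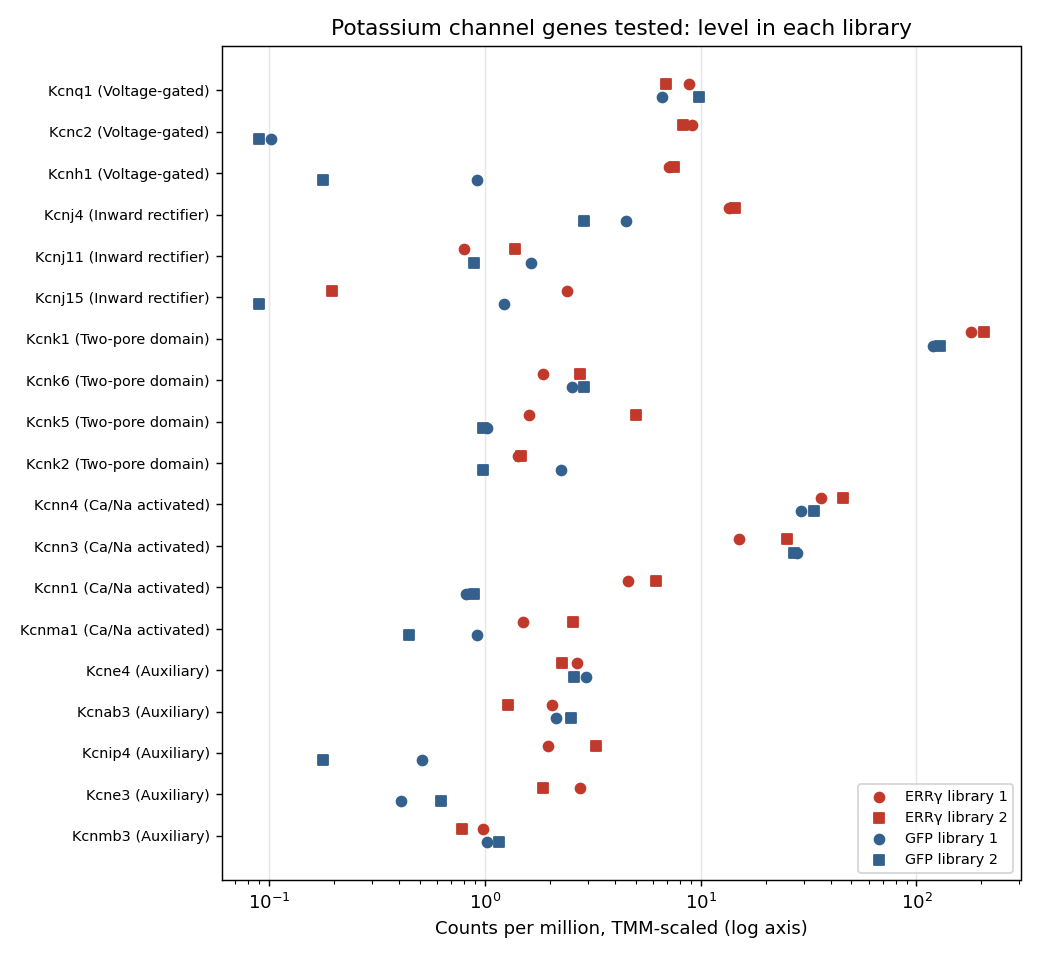
Level of 19 of the 21 channel and auxiliary genes tested, in CPM on a log axis, with 1 point per library (red, ERRγ; blue, GFP; circles, library 1; squares, library 2). The ERRγ points of Kcnc2, Kcnh1, Kcnj4, Kcnk1 and Kcnn1 lie to the right of both GFP points. So do those of Kcne3, Kcnip4, Kcnk5, Kcnma1 and Kcnn4, which did not pass the test. The ERRγ points of Kcnq1 and Kcnk2 lie between the GFP points.

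Kcnh1, Kcnj4, Kcnn1 and Kcnk1 passed as higher with ERRγ. The test was edgeR's quasi-likelihood test, at a Benjamini-Hochberg adjusted p of 0.05 over all 13070 genes tested. Together with Kcnc2, which met the same threshold, they are the 5 members called higher with ERRγ here. Because the values of Kcnc2 chose the family, its call is no support, and no test result is given for it. No member passed as lower, also with DESeq2 and limma-voom. At an unadjusted edgeR p under 0.05 none was lower, where 9.53% of all genes tested were. At that same level 8 of the 21 tested members other than Kcnc2 were higher, where 13.6% of all genes tested were. Of the 97 rows 22 had enough counts for the test, Kcnq1ot1 among them, and without Kcnc2 the 4 that rose were 4 of 21 (19.0%). Across all genes tested 6.84% passed, 5.06% as higher and 1.78% as lower. The family was proposed for a difference in this same comparison. In addition, Kcnc2, Kcne3, Kcnh1, Kcnip4, Kcnma1 and Kcnn1 passed the filter on low counts through the ERRγ libraries alone. Of these, Kcnn1 came closest to the filter in the GFP libraries, with 8 and 10 counts. For both reasons nothing is read from these shares. The median log2 fold change was 0.56 over these 21 rows and −0.01 over all genes tested, with 12 of the 21 above 0 and 9 below. Among the 32 rows with 10 or more counts, both ERRγ libraries lay above both GFP libraries in 15 (46.9%, against 27.3% of all such rows) and below both in 5 (15.6%, against 25.9%). The 15 include Kcnc2, and 9 of them had under 10 counts in both GFP libraries and so met the minimum through the ERRγ libraries alone, so nothing is read from this share either.

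Kcnc2 encodes a voltage-gated channel with fast closing that lets certain neurons fire at high rates. It had 102 and 84 counts with ERRγ, against 1 and 1 count with GFP, or 9.09 and 8.29 CPM against 0.102 and 0.0896 CPM. The ratio of the pooled levels was 91.2, with an exact 95% counting interval of 24.9 to 759 that covers counting error only. The GFP libraries were both below the floor, and the ERRγ libraries were close to each other, with a library 2 to library 1 ratio of 0.912. The gene lies on chromosome 10 from 112271121 to 112467024, plus strand (GENCODE M21, GRCm38), and no annotated gene overlaps it. The related genes Kcnc1 and Kcnc4 were near 0. Kcnc1 had 0 and 0 counts with ERRγ, against 0 and 2 with GFP, and Kcnc4 had 1 and 1 against 0 and 0.

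Kcnh1, a voltage-gated channel of the ether-a-go-go family that is known from brain and from many tumours, rose 13.4-fold with ERRγ. It had 80 and 76 counts with ERRγ, against 9 and 2 with GFP, or 7.13 and 7.5 CPM against 0.920 and 0.179 CPM (adjusted p = 0.0137 by edgeR for a log2 fold change of 3.75 ± 0.63 SE). The 2 ERRγ libraries were close together, whereas the GFP libraries differed from each other at these low counts. Without GFP library 1 the log2 fold change was 5.26 (adjusted p = 0.0487), and without GFP library 2 it was 2.97 and the call ended (adjusted p = 0.0884). Kcnh1 (chromosome 1, 192190774 to 192510159, plus strand) overlaps Hhat on the opposite strand, and Hhat had 14 and 10 counts with ERRγ, against 50 and 18 with GFP. The labels do not tell whether counting used strand, so reads of such pairs cannot be told apart. Of the same family Kcnh4, Kcnh5 and Kcnh6 had no count, and Kcnh2, the cardiac repolarizing channel, had 3 and 5 counts with ERRγ, against 6 and 4 with GFP.

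The voltage-gated gene with the most counts beside these was Kcnq1, whose product works with Kcne subunits in heart and in secretory epithelia. It stood at 8.82 and 6.91 CPM with ERRγ and 6.64 and 9.86 CPM with GFP, and the groups overlapped (adjusted p = 0.927 by edgeR for a log2 fold change of −0.07 ± 0.33 SE). Kcnq1 overlaps Kcnq1ot1, an imprinted noncoding RNA on the opposite strand that took 64.4% and 59.0% of all counts of the 97 rows with ERRγ and 64.4% and 59.2% with GFP. Kcnq1ot1, singled out after its values were seen, had 571 and 525 CPM with ERRγ, against 414 and 328 CPM with GFP (adjusted p = 0.0772 for a log2 fold change of 0.56 ± 0.16 SE). Its groups did not overlap, and it passed with DESeq2 (adjusted p = 0.0137), with no filter (0.00555), with the library number as a block (0.0450), without ERRγ library 1 (0.00741) and without ERRγ library 2 (0.00105), but not with library totals (0.0527), limma-voom (0.0635) or a mean of at least 5 CPM (0.0745), nor without GFP library 1 (0.222) or GFP library 2 (0.424). Kcnh8 and Kcns1 were low. Kcnh8 had 2 and 0 counts with ERRγ, against 10 and 2 with GFP, and Kcns1, a modulatory subunit without current of its own, had 13 and 0 against 0 and 0. The 13 counts of Kcns1 came from ERRγ library 1 alone.

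Among the inward rectifiers, Kcnj4 rose, and neither Kcnj11 nor Kcnj15 passed the test. Kcnj4, a strong rectifier of heart and brain (chromosome 15, 79483714 to 79505241, minus strand), had 151 and 146 counts with ERRγ, against 44 and 32 with GFP. Its level was 13.9 ± 0.671 CPM with ERRγ and 3.68 ± 1.15 CPM with GFP (SD, n = 2 each), a 3.79-fold difference (adjusted p = 0.0137 by edgeR's quasi-likelihood test for a log2 fold change of 1.92 ± 0.32 SE). Its call ended without GFP library 1 (2.27, adjusted p = 0.0821) and without GFP library 2 (1.63, adjusted p = 0.131). Kcnj2, a strong rectifier of the same subfamily, had 7 and 17 counts with ERRγ, against 6 and 1 with GFP, and was too low to test.

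Kcnj11, the pore of the ATP-sensitive channel that controls insulin release, had 9 and 14 counts with ERRγ, against 16 and 10 with GFP (adjusted p = 0.895 for a log2 fold change of −0.21 ± 0.68 SE). Abcc8, the regulatory subunit of that channel, had 1 and 9 counts with ERRγ, against 19 and 14 with GFP (−1.71, adjusted p = 0.308). Kcnj15 had 27 and 2 counts in ERRγ libraries 1 and 2, against 12 and 1 in GFP libraries 1 and 2, and so was high in library 1 of each group and near the floor in library 2. Its log2 fold change was 1.03 (SE 1.23, adjusted p = 0.669) and became −1.64 without ERRγ library 1. Islet hormone and granule markers, 7 of 7 with a row and none at 0 throughout, summed to 45.0 and 13.1 CPM in ERRγ libraries 1 and 2, against 184 and 26.4 CPM in GFP libraries 1 and 2, which is also higher in library 1 of each group. Their part in the values of Kcnj11, Abcc8 and Kcnj15 was not tested. Kcnj14 had 5 and 4 counts with ERRγ, against 11 and 0 with GFP.

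Kcnk1, the leak channel with most of the counts of the channel and auxiliary genes, rose 1.55-fold, the smallest of the 4 differences that passed. It had 2012 and 2084 counts with ERRγ, against 1169 and 1429 with GFP, or 192 ± 18.6 CPM against 124 ± 6.11 CPM (SD, n = 2 each; adjusted p = 0.0348 by edgeR for a log2 fold change of 0.64 ± 0.14 SE). Both ERRγ libraries lay above both GFP libraries. The gene is on chromosome 8 from 125995170 to 126030685, plus strand. The call ended without GFP library 1 (0.58, adjusted p = 0.319) and without GFP library 2 (0.69, adjusted p = 0.207). Its relative Kcnk6 stood at 1.87 and 2.76 CPM with ERRγ and 2.55 and 2.87 CPM with GFP, and the groups overlapped (−0.23, SE 0.49, adjusted p = 0.827).

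Of the acid-sensitive members of the class, Kcnk5, known from kidney and pancreatic duct, had 18 and 51 counts with ERRγ, against 10 and 11 with GFP (adjusted p = 0.181 for a log2 fold change of 1.71 ± 0.68 SE). The higher value was that of ERRγ library 2, and the log2 fold change was 0.67 without it (adjusted p = 0.794) and 2.31 without ERRγ library 1 (adjusted p = 0.0122). Kcnk3, a leak channel closed by extracellular acid, had 49 and 10 counts with ERRγ, against 2 and 0 with GFP. The ratio of pooled levels was 28.9, with a counting interval of 7.66 to 244, and here ERRγ library 1 was the higher one. Kcnk3 did not pass the filter on low counts. It passed the test in an edgeR fit with no filter (adjusted p = 0.00022) and without ERRγ library 2 (8.85e-05), and not without GFP library 1 (0.234) or GFP library 2 (0.317). The mechanically gated Kcnk2 had 16 and 15 counts with ERRγ, against 22 and 11 with GFP, and its relative Kcnk10 had 3 and 10 against 30 and 6, with both groups overlapping.

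Of the genes of calcium-activated channels, Kcnn1 rose 6.24-fold and its relatives Kcnn3 and Kcnn4 did not pass. Kcnn1, a small-conductance channel gated by calmodulin (chromosome 8, 70842049 to 70863258, minus strand), had 52 and 63 counts with ERRγ, against 8 and 10 with GFP. Its level was 5.42 ± 1.12 CPM with ERRγ and 0.857 ± 0.0558 CPM with GFP (SD, n = 2 each; adjusted p = 0.0204 by edgeR for a log2 fold change of 2.64 ± 0.49 SE). The call ended without GFP library 1 (2.58, adjusted p = 0.195) and without GFP library 2 (2.71, adjusted p = 0.150).

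Kcnn4, the intermediate-conductance channel known from epithelial secretion, had 406 and 464 counts with ERRγ, against 287 and 376 with GFP. At 36.2 and 45.8 CPM against 29.3 and 33.7 CPM its groups did not overlap, but the difference did not pass (adjusted p = 0.245 by edgeR for a log2 fold change of 0.38 ± 0.17 SE; 0.54 and adjusted p = 0.0330 without ERRγ library 1). Kcnn3, a small-conductance channel like Kcnn1, ran the other way, with 15.1 and 25.1 CPM with ERRγ and 28.0 and 27.0 CPM with GFP (−0.45, SE 0.25, adjusted p = 0.321). Without ERRγ library 2 it passed as lower (−0.86, adjusted p = 0.0101). Kcnn2, the remaining small-conductance gene, had no count in any library. The large-conductance channel gene Kcnma1 had 17 and 26 counts with ERRγ, against 9 and 5 with GFP (1.57, SE 0.69, adjusted p = 0.220). Kcnu1, its relative known from sperm, had 12 and 4 counts with ERRγ, against 3 and 0 with GFP, a ratio of 5.23 with a counting interval of 1.5 to 28.0.

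None of the 5 auxiliary genes tested passed. Kcnip4, a calcium-binding partner of the Kcnd channels, had 22 and 33 counts with ERRγ, against 5 and 2 with GFP (adjusted p = 0.0602 by edgeR for a log2 fold change of 2.90 ± 0.75 SE). It passed with no filter (adjusted p = 0.0106) and without ERRγ library 1 (3.22, adjusted p = 0.0198). It overlaps the coding gene 5730480H06Rik on the opposite strand, which had 13 and 8 counts with ERRγ, against 17 and 30 with GFP. The Kcnd genes themselves were at or near 0: Kcnd1 had 3 and 2 counts with ERRγ, against 7 and 7 with GFP, Kcnd2 had 0 and 1 against 0 and 0, and Kcnd3 had none.

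Kcne3, which holds Kcnq1 open in secretory epithelia, had 31 and 19 counts with ERRγ, against 4 and 7 with GFP (adjusted p = 0.0972 by edgeR for a log2 fold change of 2.13 ± 0.65 SE). The groups did not overlap. Kcne4, an inhibitory partner of Kcnq1, had 30 and 23 counts with ERRγ, against 29 and 29 with GFP (−0.17, SE 0.47, adjusted p = 0.877). Kcnab3, a cytoplasmic subunit of voltage-gated channels, had 23 and 13 counts with ERRγ, against 21 and 28 with GFP (−0.48, SE 0.54, adjusted p = 0.648), and Kcnab1 had 5 and 14 against 7 and 5. The partners of the large-conductance channel were low. Kcnmb2 had 26 and 9 counts with ERRγ, against 4 and 0 with GFP, Kcnmb1 had 7 and 3 against 10 and 10, and Kcnmb3 had 11 and 8 against 10 and 13. Kcnmb1 overlaps Kcnip1, which had no count.

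**Figure D3:**
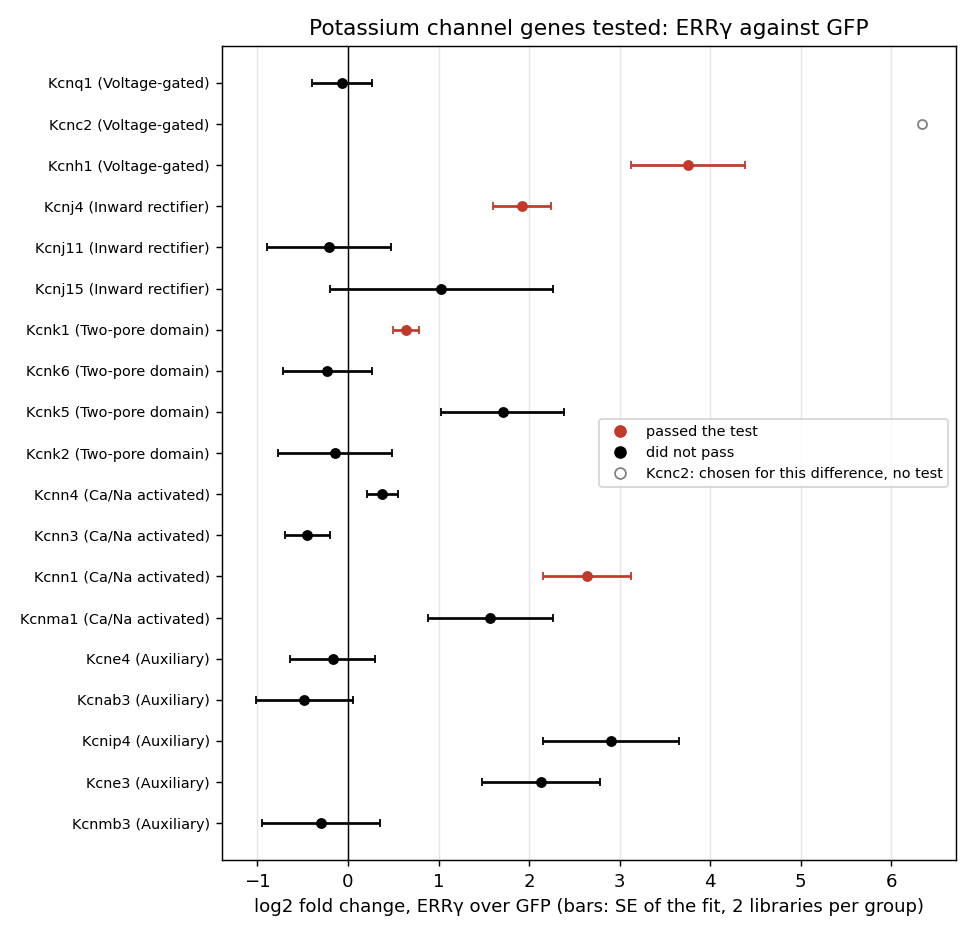
Log2 fold change of ERRγ over GFP for 19 of the 21 channel and auxiliary genes tested (horizontal axis), with bars for the SE of the fit on 2 libraries per group. The genes that passed, Kcnh1, Kcnj4, Kcnn1 and Kcnk1, lie at 3.75, 1.92, 2.64 and 0.64, and Kcnc2 is drawn without a bar because the family was chosen for it.

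The ERRγ libraries differed 9.90 times in Esrrg, and the members are given here by the ratio of these libraries. Among the 5 members higher with ERRγ, the CPM ratio of ERRγ library 2 to library 1 lay between 0.912 for Kcnc2 and 1.34 for Kcnn1, with 1.05 for Kcnh1, 1.07 for Kcnj4 and 1.15 for Kcnk1. A gene passes such a test more readily when its libraries are alike, so this closeness is not independent of the choice of genes. Among members that did not pass, the ratio was 0.849 for Kcne4, 1.04 for Kcnk2, 1.27 for Kcnn4, 3.14 for Kcnk5 and 0.082 for Kcnj15, and it was 0.226 for the untested Kcnk3. With each library left out in turn, the log2 fold changes of Kcnh1, Kcnn1, Kcnj4 and Kcnk1 stayed above 0, and the calls ended without a GFP library as given above.

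**Figure D4:**
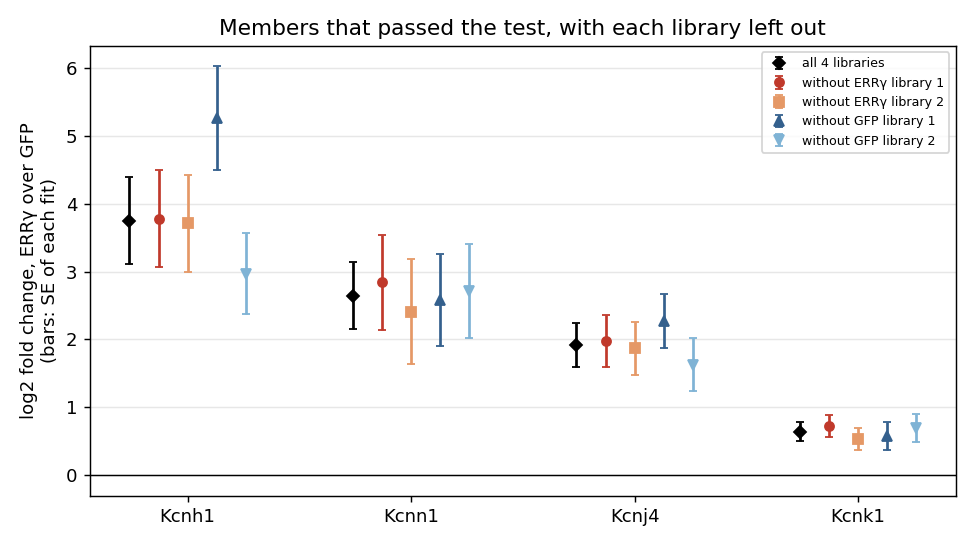
Log2 fold change of ERRγ over GFP (vertical axis) for the 4 members that passed the test, with all 4 libraries and with each left out; bars are the SE of each fit. Kcnh1 spans 2.97 to 5.26, depending on which GFP library is kept, and Kcnk1 spans 0.53 to 0.73.

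Several members are best known from neurons, so neuronal and glial markers were examined beside them. All 7 had a row and none was at 0 throughout; they summed to 11.4 and 21.8 CPM with ERRγ and 7.36 and 4.93 CPM with GFP. Of the 3 tested none passed, with Tubb3 at 38 and 61 counts with ERRγ, against 15 and 11 with GFP (log2 fold change 1.90, adjusted p = 0.0814 by edgeR), and Rbfox3 at 32 and 30 against 6 and 8 (2.10, adjusted p = 0.0689). The defining synaptic marker Snap25 was near 0, with 3 and 2 counts with ERRγ, against 2 and 0 with GFP. Rest, the repressor of neuronal genes in other tissues, had 144 ± 3.82 CPM with ERRγ and 174 ± 24.9 CPM with GFP (−0.27, adjusted p = 0.313). Smooth muscle and pericyte markers summed to 271 and 99.3 CPM with ERRγ and 371 and 168 CPM with GFP. Fibroblast markers summed to 628 and 543 CPM with ERRγ and 737 and 500 CPM with GFP. Endothelial markers stood at 7.13 and 6.22 CPM with ERRγ and 12.4 and 3.68 CPM with GFP, and immune markers at 6.15 and 14.6 CPM against 8.58 and 9.32 CPM, with Cd3e at 0 throughout. The part of these cells in the channel values was not tested.

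Outside the symbol pattern, 48 genes of potassium transport were examined: pumps, cotransporters, regulatory subunits, lysosomal and intracellular channels and their kinases. Of the 29 tested 6 rose with ERRγ (20.7%, against 5.06% of all genes tested), none fell, and 23 did not pass. The median log2 fold change of the 29 was 0.23. This list was chosen with earlier results of these data known, and Fxyd2 passed the filter on low counts through the ERRγ libraries alone. Nothing is therefore read from the share. Atp1b1, the β subunit of the sodium-potassium pump, had 415 and 415 CPM with ERRγ, against 210 and 182 CPM with GFP, a 2.12-fold rise (adjusted p = 0.00534 by edgeR for a log2 fold change of 1.08 ± 0.14 SE). The modulatory subunit gene Fxyd2 had 30 and 15 counts with ERRγ, against 2 and 1 with GFP, a ratio of 14.7 with a counting interval of 4.72 to 74.0 (adjusted p = 0.0401).

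Tmem38a and Tmem175, which also rose, encode channels of inner membranes. Tmem38a, a potassium-permeable channel of the sarcoplasmic and endoplasmic reticulum, had 235 and 202 counts with ERRγ, against 27 and 42 with GFP, a 6.22-fold rise (adjusted p = 0.00254 by edgeR for a log2 fold change of 2.64 ± 0.28 SE). Tmem175, a lysosomal potassium channel, had 572 and 451 counts with ERRγ, against 301 and 351 with GFP (0.62, SE 0.15, adjusted p = 0.0486). Slc12a2, the cotransporter that loads chloride together with sodium and potassium, had 105 ± 10.6 CPM with ERRγ and 125 ± 13.1 CPM with GFP (SD, n = 2 each; −0.25, SE 0.15, adjusted p = 0.361). When GFP library 1 or GFP library 2 was left out, calls ended for Atp1b1 (adjusted p = 0.0754 and 0.0966 in these 2 edgeR fits), Fxyd2 (0.267 and 0.295, and 0.141 without ERRγ library 1) and Tmem175 (0.328 and 0.261). Atp1b1 and Tmem175 overlap Nme7 and Dgkq on the opposite strand, each of which was also higher with ERRγ, with 2201 and 1786 counts with ERRγ, against 1084 and 1006 with GFP, for Nme7, and 508 and 405 against 231 and 272 for Dgkq.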

How the data were processed

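Transcript-end libraries (Lexogen QuantSeq kit, 500 ng total RNA, per the labels' protocols) were sequenced for 2 ERRγ and 2 GFP samples. The authors deposited 1 table of raw read counts per gene symbol for each library, without normalization; the submitters' processing notes name Bowtie2, edgeR and the mm10 build. The counter, its annotation and its strand setting are not given in the sources used. Totals ran from 10.11 M to 11.01 M counts. Here, rows were kept by filterByExpr (minimum count 10; 13070 rows), scaled by TMM and tested with edgeR 4.0.16 glmQLFit and glmQLFTest in R 4.3.3, group alone, two-sided, Benjamini-Hochberg over all genes tested, threshold 0.05. The SE is the log2 fold change over the square root of F. The fit was tested on simulated data, with differences placed only in genes with a mean of at least 5 CPM. That test therefore does not cover lower levels, such as those of Kcnh1 and Kcnn1. Alternatives were library totals, DESeq2 1.42.0, limma 3.58.1 voom, no filter, a mean of at least 5 CPM, the library number as a block, and each library left out. Positions come from GENCODE M21 (GRCm38, the assembly of mm10); 97 of 97 members matched. Counting ratios use the pooled counts over TMM library sizes, with exact 95% intervals. The members, gene lists and rules were chosen with earlier results of these data known. Named were Kcnc2, members past the threshold, the 2 highest tested in each class, tested members with an absolute log2 fold change of at least 1, and untested members with 10 or more counts whose groups did not overlap. Of the transport genes, those past the threshold and Slc12a2 were named; others are context. Some genes under these rules are counted but not reported here.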

Additional observations from a re-analysis of the deposited data

How the results depend on the processing

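The values of Kcnc2 chose the family, so its presence in the counts is no sign of stability, and counts are given with and without it. With it 5 members were higher with ERRγ (4 without) in the fit of all 4 libraries, with library totals and with limma-voom. There were 6 (5 without) with DESeq2 or the replicate block (library number as a block), and 8 (7 without) with no filter. The fit with no filter tested 68 members, against 22 with the filter on low counts. Of all genes tested, 5.06% rose in the fit of all 4 libraries, 5.27% with library totals and 4.82% with limma-voom. The share was 6.22% with DESeq2, 5.94% with the block and 7.11% with no filter. A mean of at least 5 CPM left 6 members to test, Kcnc2 not among them, and 2 were higher, where 5.66% of all genes tested were. With each library left out in turn between 1 and 9 were higher (0 to 8 without Kcnc2) and between 0 and 1 lower, the lower one being Kcnn3 without ERRγ library 2. Calls over all genes moved the same way. Without ERRγ library 1, 11.8% of all genes tested rose and 8.13% fell (8 members higher without Kcnc2), and without ERRγ library 2, 7.19% rose and 4.72% fell (6 members). Without GFP library 1, 0.676% rose (1 member, Kcnh1), and without GFP library 2, 0.872% rose (0 members). The log2 fold change of Kcnc2, given with no test, was 6.34, against 6.50 with DESeq2 and 5.93 with limma-voom; the cause was not tested. With a library left out the log2 fold change turned sign for Kcnj11 (−0.64 to 0.27), Kcnj15 (−1.64 to 3.71), Kcnk6 (−0.54 to 0.03) and Kcnq1 (−0.33 to 0.24), and none of these passed in any fit. In the other potassium transport genes between 1 and 9 rose and between 0 and 1 fell (Wnk1, without ERRγ library 1) when a library was left out; Fxyd2 lost its call with limma-voom and Tmem175 with library totals, DESeq2 and limma-voom. A minimum of 5 counts would keep 46 members as detected and one of 20 counts 22. The labels number the libraries 1 and 2 in each group without saying that a number marks a shared source. Over 13070 genes the difference between libraries 1 and 2 correlated by 0.00744 between the groups, and the replicate block added Kcnq1ot1 and changed the call of no other member. A leave-one-out fit takes its spread from the remaining pair alone, which limits what a lost call shows. At about 10 M reads per library, members under 10 counts could not be compared.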
